A study of Mus musculus with 6 samples.

Results

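The genes described are 9 genes of retinoid metabolism and retinoic acid signalling, chosen by name and found as 9 of the 43430 rows of a table of read counts per gene: the alcohol dehydrogenases Adh1 and Adh7, the retinol dehydrogenase Rdh10, the retinaldehyde dehydrogenases Aldh1a1 and Aldh1a3, the retinoic acid receptors Rara, Rarb and Rarg, and the retinoic acid hydroxylase Cyp26b1. RNA was sequenced from PDGFRA-positive lung fibroblasts that had been isolated by flow sorting from male C57BL/6J mice aged 9 to 11 weeks. The hypercapnia group (9 mice) breathed 10% CO2 for 10 days, and the room air group (9 mice) was not exposed. Each group had 3 libraries with the pooled cells of 3 mice in each, called M4, M5 and M6 (hypercapnia) and M1, M2 and M3 (room air). Both lungs were harvested. In such bulk samples fewer cells of a type and less RNA per cell cannot be told apart.

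Retinol (vitamin A) is stored in cells as retinyl esters, is oxidised reversibly to retinaldehyde by alcohol and retinol dehydrogenases, and is then oxidised irreversibly to retinoic acid by the ALDH1A enzymes. Retinoic acid binds the receptors RARA, RARB and RARG, which pair with retinoid X receptors on direct repeats of a short motif in DNA, and enzymes of the CYP26 family clear it by hydroxylation. In the mouse lung, lipid-bearing fibroblasts are known for storing retinyl esters, and retinoic acid is known for its part in the formation of alveoli.

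The Rarb promoter is the textbook target of these receptors, and it is shown with the promoters of the most abundant members, Aldh1a1 and Adh1, because the results below turn on how differently these genes are expressed. The sequences are those of RefSeq (build GRCm38.p6), 250 bases before to 50 bases after an annotated start, 5′ to 3′ on the strand of the gene. RefSeq's table held 12 such promoters for 7 of the 9 genes. Capitals mark receptor hexamers, searched as AGGTCA or as AGTTCA or as GGGTCA or as GGTTCA. They also mark 2 hexamers in the same direction that are spaced by 5 bases (a direct repeat of 2 hexamers, with its spacer) and the E-box CACGTG. Each was searched on both strands, and a direct repeat also counts as hexamers. The Rarb window is chr14:16575427-16575726 (minus strand), the Aldh1a1 window is chr19:20601718-20602017 (plus strand) and the Adh1 window is chr3:138277335-138277634 (plus strand).
Rarb: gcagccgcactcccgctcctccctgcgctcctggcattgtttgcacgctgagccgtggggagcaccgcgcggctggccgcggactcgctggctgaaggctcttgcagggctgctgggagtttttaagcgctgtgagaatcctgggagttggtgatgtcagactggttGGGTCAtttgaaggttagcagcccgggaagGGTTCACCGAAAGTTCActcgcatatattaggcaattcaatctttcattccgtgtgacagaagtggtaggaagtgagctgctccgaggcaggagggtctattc
Aldh1a1: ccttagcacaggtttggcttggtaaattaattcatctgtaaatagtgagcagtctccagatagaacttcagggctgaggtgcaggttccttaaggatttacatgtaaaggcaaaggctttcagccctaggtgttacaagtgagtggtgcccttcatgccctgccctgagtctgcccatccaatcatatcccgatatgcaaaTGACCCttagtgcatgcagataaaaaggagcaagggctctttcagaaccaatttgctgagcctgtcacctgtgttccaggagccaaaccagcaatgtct
Adh1: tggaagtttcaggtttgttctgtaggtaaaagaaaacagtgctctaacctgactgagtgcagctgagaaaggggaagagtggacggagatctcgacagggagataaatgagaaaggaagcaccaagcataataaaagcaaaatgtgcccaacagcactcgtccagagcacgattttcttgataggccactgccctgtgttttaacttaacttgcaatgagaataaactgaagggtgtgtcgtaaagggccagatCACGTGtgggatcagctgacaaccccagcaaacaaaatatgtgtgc
The Rarb window held the direct repeat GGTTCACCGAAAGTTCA, which begins 53 bases before the start (position -53), and it was the sole promoter among the 12 with a direct repeat of spacing 5. Of all 32851 mouse promoters of the same length, 0.0974% held such a repeat and 43.7% held at least 1 hexamer. The Aldh1a1 window shown held 1 hexamer on the opposite strand at position -49. Another Aldh1a1 promoter, chr19:20492333-20492632, is not shown and held 0 hexamers. The Adh1 window held an E-box at position 4 and no hexamer, and 7.15% of the searched promoters held an E-box. These matches describe the letters of the windows and not binding in these cells.

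Total counts ran from 8999780 to 10198336 per library. Values are given as CPM, the counts scaled to a common library size with TMM factors, and 3 counts correspond to 0.281 to 0.354 CPM. The sorted receptor Pdgfra stood at 2971 ± 419 CPM in hypercapnia and 3562 ± 209 CPM in room air (SD, n = 3 each), and Ptprc, the leukocyte marker CD45, had 2 counts over all 6 libraries. Markers of fibroblast subtypes summed to 14700 to 16800 CPM in hypercapnia and 19900 to 20100 CPM in room air for 10 alveolar fibroblast markers, and to 3120 to 4590 CPM in hypercapnia against 2750 to 3250 CPM in room air for 10 adventitial markers, where the groups overlapped. Of the alveolar markers 7 were called lower and 0 higher, and of the adventitial markers 1 (Il33) was called higher and 0 lower (edgeR, adjusted p under 0.05). The 10 adventitial log2 fold changes were all positive (0.104 to 1.07, median 0.524). Of these markers 7 had an unadjusted p under 0.05, and the groups were apart in 4. Endothelial transcripts were present in every library, with 1650 to 2690 CPM over 10 markers in hypercapnia and 451 to 1730 CPM in room air, M3 being the lowest. All 10 endothelial log2 fold changes were positive (0.459 to 1.08, median 0.873), 5 had an unadjusted p under 0.05, the groups were apart in 4, and 0 were called. Airway epithelial markers summed to 193 to 484 CPM in hypercapnia and 389 to 643 CPM in room air. Of these, 8 were tested and 0 called, with 2 positive and 6 negative log2 fold changes (median -0.648), 4 with an unadjusted p under 0.05. Alveolar type 2 markers (7 log2 fold changes positive, 1 negative) and pericyte and smooth muscle markers (3 positive, 4 negative) also gave 0 calls. The 8 leukocyte markers summed to 39.1 to 77.9 CPM in hypercapnia and 17.9 to 61.6 CPM in room air. Of the leukocyte markers 3 were tested and 0 called (all 3 log2 fold changes positive, median 0.357), and Adgre1 and Cd3e were at 0 in every library.

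Of the 9 genes, Aldh1a1 and Adh1 were abundant, the receptors Rarg and Rara were at moderate levels, and Rarb was close to the limit of detection. None of the 9 passed edgeR's quasi-likelihood test of hypercapnia against room air at an adjusted p under 0.05 (0 higher, 0 lower), where 1.22% of the 13005 tested genes did (0.523% higher, 0.7% lower). The 9 genes all entered the test. In 3 of them the values of hypercapnia and room air were fully apart, Aldh1a1 and Aldh1a3 being higher and Rarg lower in hypercapnia. Over all tested genes 18% were apart in this way (9.28% higher, 8.74% lower). The same 3 genes had an unadjusted p under 0.05, as had 12% of all tested genes. DESeq2 called 1 of the 9 (Aldh1a3) and limma-voom 0, where they called 443 and 196 of all 13005 tested genes. The median log2 fold change was 0.187 over the 9 genes and 0.0096 over all tested genes.

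**Figure D1:**
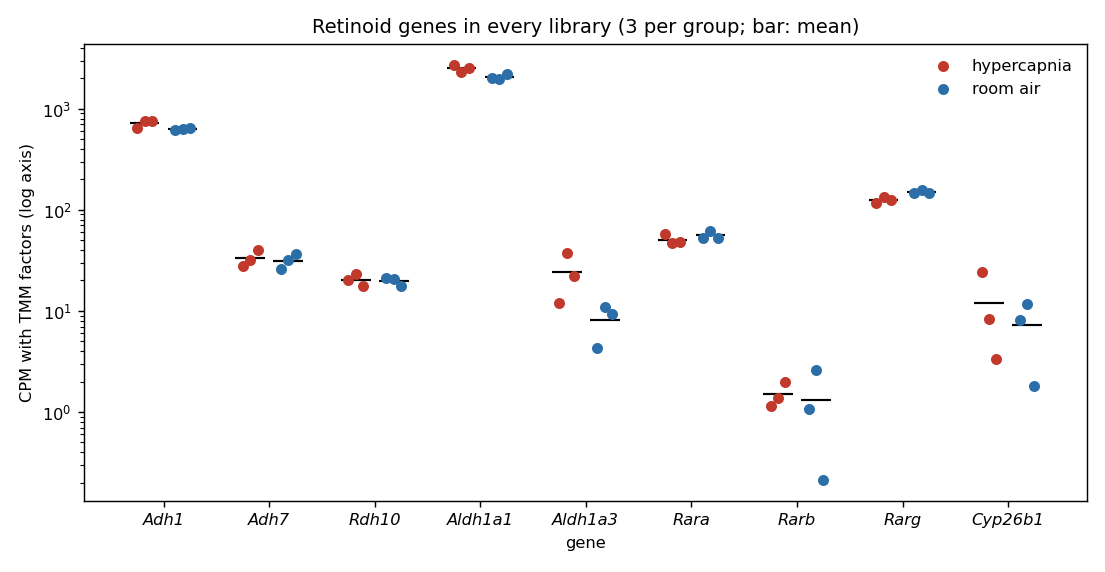
CPM with TMM factors (log axis) of the 9 retinoid genes in each of the 3 hypercapnia libraries (red) and 3 room air libraries (blue), with the group mean as a bar. The groups are apart in Aldh1a1, Aldh1a3 and Rarg and overlap in the other 6 genes, and Rarb lies at 2.63 CPM or less in all 6 libraries.

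Levels of different genes were compared as CPM per kilobase of annotated exon. Aldh1a1 came first with 397 to 552 CPM per kilobase over the 6 libraries, followed by Adh1 with 277 to 338. Rarg came next at 27.4 to 37.1 CPM per kilobase, then Rara at 10.8 to 14.2, Adh7 at 6.79 to 10.6 and Rdh10 at 4.23 to 5.51. These 6 genes did not overlap with one another. Aldh1a3 (0.92 to 8.19 CPM per kilobase) overlapped Adh7, Rdh10 and Cyp26b1 (0.337 to 4.58), and the lowest Cyp26b1 library lay below the highest library of Rarb (0.0403 to 0.499). The order of the 9 genes was the same when the longest transcript was used as the length.

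**Figure D2:**
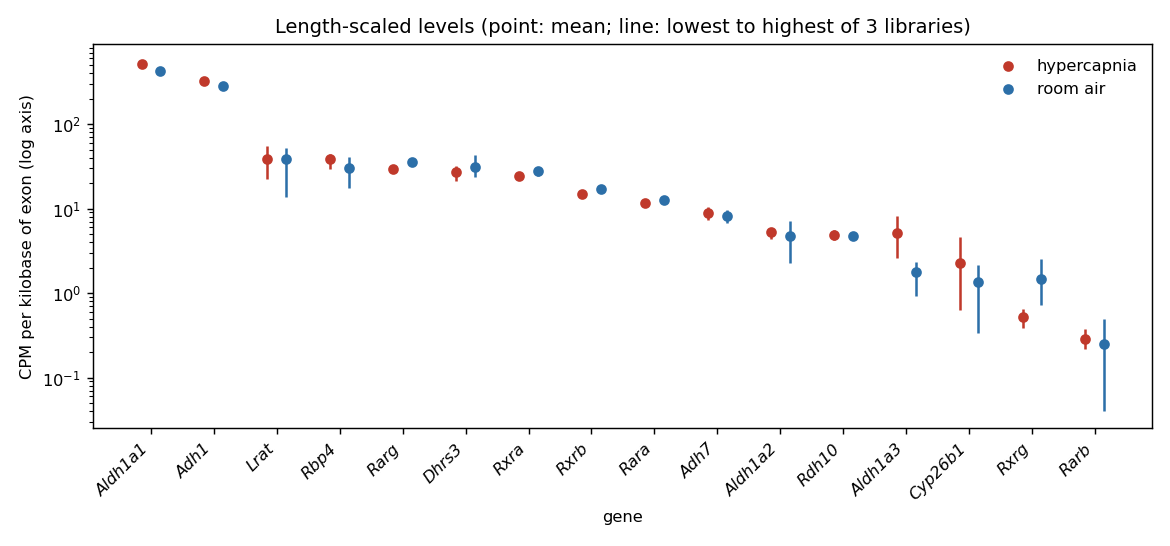
CPM per kilobase of exon (log axis) of retinoid genes in hypercapnia (red) and room air (blue), each as the mean of 3 libraries with a line from the lowest to the highest. Aldh1a1 and Adh1 stand above 270 CPM per kilobase, Rarb stands below 0.5, and the long lines of Aldh1a3, Cyp26b1 and Lrat show the spread between libraries of a group.

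The first oxidation step is represented by Adh1, Adh7 and Rdh10. Adh1, a cytosolic alcohol dehydrogenase that oxidises ethanol and retinol, lies on mm10 chromosome 3 from 138260991 to 138290698. It stood at 646, 754 and 752 CPM in M4, M5 and M6, against 618, 625 and 647 CPM in M1, M2 and M3. M5 and M6 were above every room air library, while M4 lay just under M3, so the groups overlapped. Its log2 fold change was 0.19 ± 0.11 (SE; 95% interval -0.05 to 0.42; edgeR adjusted p = 0.541). In its exons, 6.09% of the bases overlap a gene model on the other strand.

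Adh7, the class of alcohol dehydrogenase best known from epithelia of the upper digestive tract, is its neighbour on chromosome 3 (138217760 to 138233382). It stood at 27.8, 31.7 and 40 CPM in M4, M5 and M6, against 25.7, 31.6 and 36.2 CPM in M1, M2 and M3. The groups covered nearly the same range, with a log2 fold change of 0.09 ± 0.19 (95% interval -0.32 to 0.50, edgeR adjusted p = 0.916). Rdh10, a membrane-bound dehydrogenase that is essential for retinaldehyde formation in the mouse embryo, lies on chromosome 1 (16105774 to 16133734). It stood at 20.3, 22.9 and 17.8 CPM in M4, M5 and M6, against 21, 20.9 and 17.6 CPM in M1, M2 and M3. Its groups overlapped, and the 95% interval of its log2 fold change, -0.36 to 0.43, spans changes of 0.779-fold to 1.35-fold. The signs of the Adh7 and Rdh10 differences turned when single libraries were left out.

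The second, irreversible step rested almost wholly on Aldh1a1 by RNA level. Per kilobase, Aldh1a1 made up 97.8% ± 0.687 of the 4 measured Aldh1a transcripts in hypercapnia and 98.2% ± 0.797 in room air (SD, n = 3 each). Aldh1a1, on chromosome 19 from 20492715 to 20643465, stood at 2726, 2324 and 2531 CPM in M4, M5 and M6, against 2031, 1960 and 2231 CPM in M1, M2 and M3. Every hypercapnia library was above every room air library, although M5 exceeded M3 by little. Its log2 fold change was 0.28 ± 0.10 (95% interval 0.06 to 0.51), that is 1.22-fold, with an unadjusted p of 0.0163 and an edgeR adjusted p of 0.254, so it did not pass over all genes. Its neighbour Aldh1a7, a rodent paralogue on the same chromosome (20692953 to 20727562), shares with it 3.06% of the 50-base words of the Aldh1a1 transcripts and 7.49% of its own. Aldh1a7 had 6 to 28 counts per library, so reads split between these genes could move Aldh1a7 but hardly Aldh1a1, which had 17216 counts or more in each library.

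Aldh1a3, which makes retinoic acid in the embryonic eye and nasal region of the mouse, had the largest difference of the 9 genes. The gene lies on chromosome 7 from 66390890 to 66427517. It stood at 12, 37.8 and 22.4 CPM in M4, M5 and M6, against 4.25, 10.8 and 9.23 CPM in M1, M2 and M3. M5 and M6 were well above each room air library, whereas M4 was close to M2. The log2 fold change was 1.57 ± 0.42 (95% interval 0.64 to 2.50), or 2.96-fold, with an unadjusted p of 0.0036 and an edgeR adjusted p of 0.124. The gene was called by DESeq2 (adjusted p = 0.00287), by edgeR without a filter on low counts (8.71e-08) and by edgeR without M4 (0.0363), within a range of adjusted p from 8.71e-08 to 0.982 over all 16 alternatives. Without the filter the SE of Aldh1a3 was 0.251, against 0.421 with it. That of Cyp26b1 was 0.311 against 0.697, and that of Rarg 0.137 against 0.107. The p-values without a filter therefore hardly reflect the spread of the single gene. The coefficient of variation of Aldh1a3 among replicates was 54% in hypercapnia and 42.4% in room air, against 6.42% and 11.5% from counting alone.

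The adventitial fibroblast markers moved with Aldh1a3 in M5 and M6, the highest libraries of both. The mean log2 CPM of the adventitial markers was 7.63, 8.05 and 7.9 in M4, M5 and M6, and 7.2, 7.53 and 7.17 in M1, M2 and M3. Pi16, which marks adventitial fibroblasts, stood at 292, 536 and 483 CPM in the same hypercapnia libraries and at 213, 319 and 279 CPM in the room air libraries. With the adventitial level as a covariate, an alternative added after seeing the data, the log2 fold change of Aldh1a3 was -0.19 ± 0.62 (edgeR adjusted p = 0.982) and 0 of the 13005 genes were called, against 159 without it, so this loss of calls is not particular to Aldh1a3. The place of M4 depended on the summary. By mean log2 CPM M4 (7.63) lay above M2 (7.53) and M3 (7.17). By summed level M4 (3120 CPM) lay below M2 (3250 CPM) and M3 (3170 CPM). By mean log2 CPM, the level used as the covariate, every hypercapnia library lay above every room air library. That model can therefore hardly tell group and adventitial level apart, and the part of adventitial cells in the Aldh1a3 difference was not tested. The 4 genes whose log2 CPM over the 6 libraries was most like that of Aldh1a3, among 10758 genes of at least 5 CPM, were Cldn1 and Fmod (Pearson r = 0.997 each), Serpinf1 (0.989) and Pelo (0.988). These 6 points include the difference between the groups, and Serpinf1 is itself one of the adventitial markers. Fmod, the collagen-binding proteoglycan fibromodulin, stood at 93.4, 139 and 118 CPM in M4, M5 and M6, against 64.5, 90.1 and 80.6 CPM in M1, M2 and M3.

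The receptor genes were dominated by Rarg. Per kilobase it made up 71% ± 3.42 of the RNA of the 3 retinoic acid receptors in hypercapnia and 73.1% ± 1.22 in room air (SD, n = 3 each), with 28.3% ± 3.51 and 26.4% ± 0.821 for Rara. Rarg, on chromosome 15 from 102234938 to 102257517, stood at 117, 133 and 124 CPM in M4, M5 and M6, against 147, 158 and 145 CPM in M1, M2 and M3. Each hypercapnia library was below each room air library. The log2 fold change was -0.27 ± 0.11 (95% interval -0.51 to -0.03), or 0.83-fold, with an unadjusted p of 0.03 and an edgeR adjusted p of 0.333. The alveolar fibroblast markers were lower in the same libraries, with a mean log2 CPM of 9.05, 9 and 9.03 in M4, M5 and M6 and of 9.64, 9.62 and 9.59 in M1, M2 and M3. Their part in the Rarg difference was not tested.

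Rara, the broadly expressed receptor on chromosome 11 (98927818 to 98974942), stood at 57.3, 47 and 47.9 CPM in M4, M5 and M6, against 52.6, 61.9 and 52.7 CPM in M1, M2 and M3. The groups overlapped through M4, and the log2 fold change was -0.14 ± 0.13 (95% interval -0.43 to 0.16, edgeR adjusted p = 0.777). Rarb, whose own promoter carries the direct repeat shown above, is commonly read as a target of retinoic acid. It lies on chromosome 14 from 16430839 to 16819156 and had 10, 14 and 21 counts in M4, M5 and M6, against 9, 25 and 2 counts in M1, M2 and M3. It averaged 1.5 ± 0.427 CPM in hypercapnia and 1.3 ± 1.22 CPM in room air (SD, n = 3 each). The hypercapnia libraries lay within the range of the room air libraries, and at this depth the 95% interval of the log2 fold change, -1.54 to 1.94, does not tell apart a 0.345-fold from a 3.83-fold level. Of the exonic bases of Rarb, 38.4% overlap gene models on the other strand, among them Top2b, which had 1357 to 1529 counts per library. The strand setting of the counting is not given in the labels, and without strand, reads of Rarb and Top2b cannot be told apart where they overlap.

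**Figure D3:**
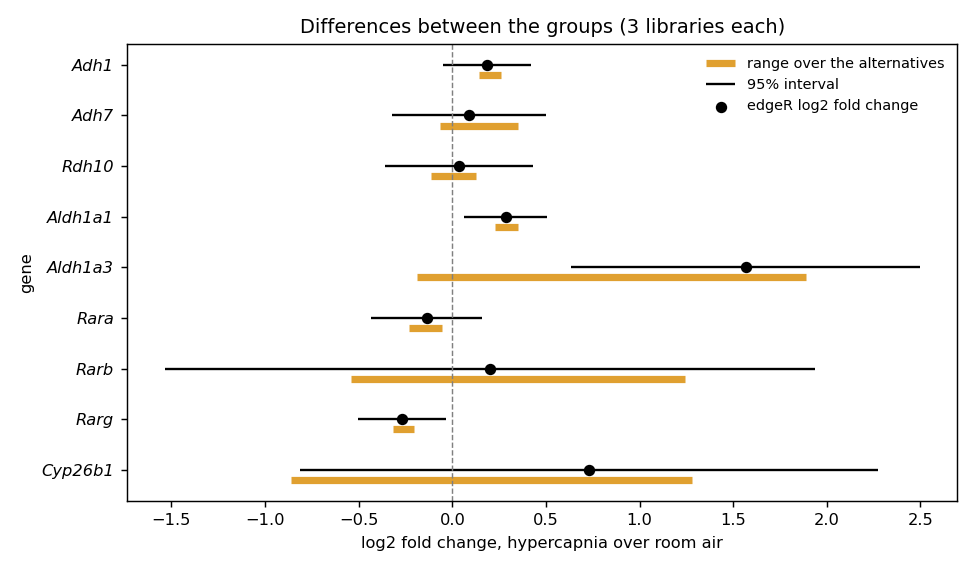
Log2 fold change of hypercapnia over room air for the 9 genes (points, edgeR) with 95% intervals (black) and the range over the alternatives (orange, for Aldh1a3 including the adventitial covariate). The intervals of Aldh1a1, Aldh1a3 and Rarg exclude 0 before adjustment for the 13005 genes tested, and those of Rarb and Cyp26b1 are the widest.

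Cyp26b1, the hydroxylase that clears retinoic acid, varied more between libraries than between groups. The gene, on chromosome 6 from 84571414 to 84593908, stood at 24.5, 8.27 and 3.37 CPM in M4, M5 and M6, against 8.14, 11.7 and 1.8 CPM in M1, M2 and M3. The highest and the second lowest library were both from hypercapnia. Its coefficient of variation was 91.8% in hypercapnia and 69.4% in room air, against 9.46% and 12.3% from counting alone. The log2 fold change was 0.73 ± 0.70 (95% interval -0.81 to 2.27, edgeR adjusted p = 0.768), and it was -0.30 without M4 and -0.86 ± 0.54 in a model that also held the endothelial level. The endothelial markers averaged 7.73, 7.4 and 7.05 log2 CPM in M4, M5 and M6, and 7.08, 6.91 and 5.26 in M1, M2 and M3. M4, the highest in Cyp26b1, was also the highest in the endothelial markers and in the mesothelial markers (mean log2 CPM of 4.58, against 2.3 to 3.59 in the other 5 libraries). Its summed mesothelial level of 210 CPM lay within their range of 129 to 275 CPM. Of that sum 141 CPM were Upk1b, which was called lower in hypercapnia (log2 fold change -0.73, edgeR adjusted p = 0.0317). Msln, Upk3b and Wt1 were highest in M4, at 13.7, 26.4 and 4.67 CPM. M4 and M2, the highest in Cyp26b1, were also the highest in the airway epithelial markers (mean log2 CPM of 4.17 and 4.16). M3, the lowest in Cyp26b1, was the lowest in the endothelial, alveolar type 2, leukocyte, and pericyte and smooth muscle markers. The part of these cell types in the Cyp26b1 values was not tested beyond models with the endothelial or the airway epithelial level. With the airway epithelial level the log2 fold change was 0.96 ± 0.66. The paralogues Cyp26a1 and Cyp26c1 had 0 counts in every library, which allows up to 0.354 CPM in the shallowest.

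**Figure D4:**
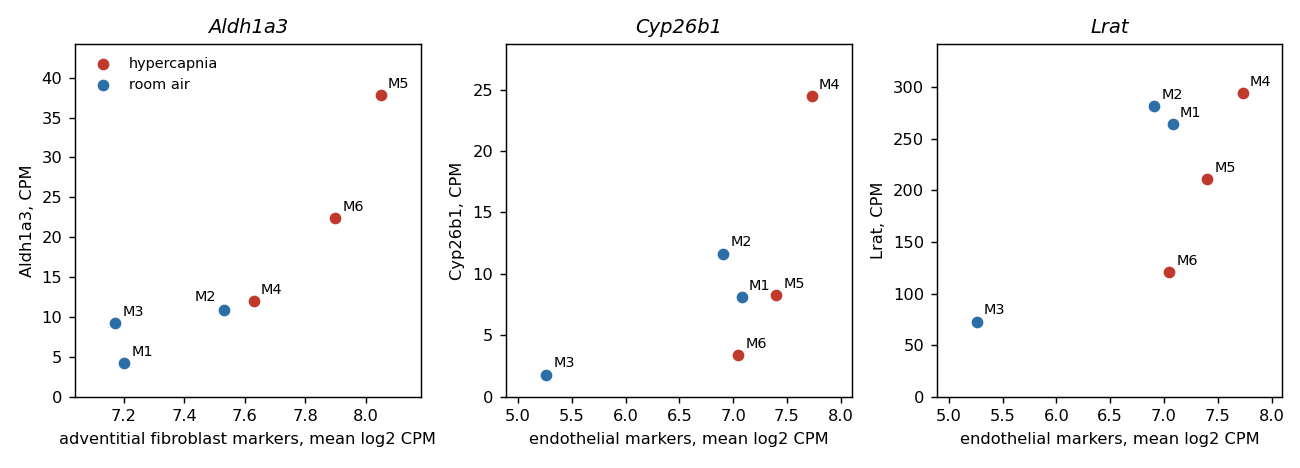
CPM of Aldh1a3 beside the mean log2 CPM of 10 adventitial fibroblast markers, and CPM of Cyp26b1 and Lrat beside that of 10 endothelial markers, 1 point per library (red, hypercapnia; blue, room air). M5 and M6 are the highest in Aldh1a3 and in the adventitial markers, and M3 is the lowest in Cyp26b1, in Lrat and in the endothelial markers.

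Beyond the 9 genes, 80 other genes of the pathway were listed by role, of which 50 were tested. By edgeR's test 0 were called higher and 0 lower, 4 had an unadjusted p under 0.05 (Lipe, and Retsat, Rxrg and Hoxb5, which were named after their values were seen), DESeq2 called 1 (Lipe) and limma-voom 0. Over all 13005 genes, 12% had an unadjusted p under 0.05 and DESeq2 called 443. Of the 50 genes 26 had a positive log2 fold change, and the median was 0.00356. The groups did not overlap in 9 of them, 3 higher and 6 lower, which is the 18% found over all tested genes.

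Among the other dehydrogenases and reductases (10 of 18 tested, 0 called), Dhrs3, which reduces retinaldehyde back to retinol and is induced by retinoic acid, stood at 93.7, 80 and 62.6 CPM in M4, M5 and M6, against 81.5, 126 and 69.2 CPM in M1, M2 and M3. Dhrs7, Adh5 and Akr1b3 had log2 fold changes of 0.03, 0.11 and 0.20. Aldh1a2, the main retinaldehyde dehydrogenase of the mouse embryo, was low and overlapped between the groups, at 12.6, 12.9 and 9.94 CPM in hypercapnia and 5.19, 16.1 and 10.7 CPM in room air. Its log2 fold change was 0.14 ± 0.36, and that of Aldh1a7 was -0.43 ± 0.63.

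Of the 19 genes of retinol uptake, storage, cleavage and binding, 7 were tested and 0 called. Lrat, the enzyme that esterifies retinol for storage, stood at 294, 211 and 121 CPM in M4, M5 and M6, against 264, 282 and 72.8 CPM in M1, M2 and M3. M3, the library with the fewest endothelial transcripts, was the lowest. That library was also the lowest in the alveolar type 2 (mean log2 CPM of 3.02), leukocyte (1.99) and pericyte and smooth muscle (3.63) markers. The log2 fold change was 0.02 ± 0.43 in all libraries (edgeR adjusted p = 0.993), and -0.97 ± 0.17 in a model that also held the endothelial level, where Lrat was called (adjusted p = 0.016, in a range of 0.016 to 0.998 over its alternatives). Lipe, the hormone-sensitive lipase that also hydrolyses retinyl esters, stood at 45.7, 43.1 and 29.4 CPM in hypercapnia, against 62.5, 73.6 and 49.7 CPM in room air. Every hypercapnia library was below every room air library, with a log2 fold change of -0.65 ± 0.19, an unadjusted p of 0.00658 and an edgeR adjusted p of 0.167. Lipe was called by DESeq2 (adjusted p = 0.0469), without a filter (0.00244) and with the endothelial covariate (0.0258), within a range of 0.00244 to 0.508 over its alternatives. The fit without a filter has the limit given for Aldh1a3. Rbp4, the retinol carrier of plasma, had a log2 fold change of 0.37 ± 0.27.

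Outside the naming rule, and chosen after its values were seen, Stra6l, which encodes a receptor for the plasma retinol carrier in the mouse, had 0 counts in M4, M5 and M6, against 8, 8 and 11 counts in M1, M2 and M3. Over each group together, 0 against 27 counts make it at least 9.72-fold lower in hypercapnia when 3 counts over the group are taken as the floor. It was below the filter and was not tested with the others. edgeR without a filter, a fit with the limit given for Aldh1a3, gave it an adjusted p of 0.0792. Of the other untested genes listed, Crabp1 and Bco1 were also lower in every hypercapnia library, and Rarres1 was higher. How often untested genes were apart over the whole series was not counted.

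The partners and co-regulators of the receptors did not pass either. Of the retinoid X receptors and other nuclear receptors, 5 of 7 were tested and 0 called. Rxra, the most abundant retinoid X receptor per kilobase, stood at 149, 133 and 122 CPM in M4, M5 and M6, against 158, 164 and 133 CPM in M1, M2 and M3 (log2 fold change -0.18 ± 0.13). Rxrb had a log2 fold change of -0.20 ± 0.12, with every hypercapnia library (55.6 to 60.3 CPM) just below every room air library (60.6 to 72.4 CPM). Rxrg, a retinoid X receptor of low level, stood at 1.25, 0.886 and 1.5 CPM in M4, M5 and M6, against 1.65, 5.88 and 2.55 CPM in M1, M2 and M3. Its groups were apart, with M2 far above the other libraries, and its log2 fold change was -1.46 ± 0.61 (95% interval -2.82 to -0.11, unadjusted p = 0.0365, edgeR adjusted p = 0.362). The nuclear receptors Rora and Ppard had log2 fold changes of 0.15 ± 0.18 and -0.15 ± 0.17. The 12 coactivators and corepressors, among them Ncor1 (-0.02 ± 0.11), Ep300 (0.12 ± 0.14) and Ncoa1 (-0.14 ± 0.16), were all tested and had log2 fold changes of -0.136 to 0.197.

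Genes known to respond to retinoic acid, 16 of 23 tested, gave 0 calls, with 6 positive and 10 negative log2 fold changes and a median of -0.041. Tgm2, the transglutaminase induced by retinoic acid in many cells, stood at 790, 625 and 535 CPM in M4, M5 and M6, against 784, 724 and 580 CPM in M1, M2 and M3. Its groups overlapped (log2 fold change -0.10 ± 0.16), as did those of Rarres2, which encodes the chemoattractant chemerin (0.02 ± 0.17). Of the exonic bases of Rarres2, 33.6% overlap a gene on the other strand. Of 5 other genes of oxidation and conjugation listed beside Cyp26b1 (Cyp26a1 and Cyp26c1 among them), 2 were tested and 0 called. They were Cyp1b1, which is known for oxidising retinol and retinaldehyde towards retinoic acid (0.10 ± 0.22), and Cyp2s1 (-0.37 ± 0.44).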

How the data were processed

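The deposited values are raw HTSeq read counts for 43430 Ensembl genes in 6 columns, with no normalization by the authors. The submitters' processing notes name build mm10 with the tools HTSeq, TopHat2 2.1.0, FastQC and bcl2fastq 2.17.1.14. For the annotation release and the strand setting, the sources used here give nothing. Columns name the group but not the sample, so each was assigned to its group. Symbols came from a separate list of gene names, and from GENCODE M21 where that list lacked an ID. Exon lengths and overlaps came from GENCODE M21. 42462 IDs had a symbol.

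Libraries were scaled with TMM factors. edgeR's quasi-likelihood test (edgeR 4.0.16, R 4.3.3, two-sided, group as the only term, 4 residual degrees of freedom) was run on the 13005 genes that passed filterByExpr (minimum count 10), with Benjamini-Hochberg adjustment over all of them and a threshold of 0.05. The SE is the size of the log2 fold change divided by the square root of F, and 95% intervals use edgeR's total degrees of freedom. DESeq2 1.42.0 and limma-voom (limma 3.58.1) were alternatives. On simulated counts of this comparison (12768 genes), 8% of changes of 1.5-fold, 42.9% of 2-fold, 70.8% of 3-fold and 96% of 4-fold were called, and 8.55% of the calls were false. Replicates differed beyond counting noise (chi-square per degree of freedom of 12.6 or more for each pair).

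The 9 genes, the lists and the tests were chosen with earlier results of these data known. The main p-values measure the spread between pools of 3 mice. Those of edgeR without a filter hardly reflect the spread of the single gene. Total counts per library were 8999780 to 10198336. Alternatives were other scaling, filters, tools, left-out libraries and cell type marker levels as covariates. Named beside the 9 were called genes of each list, its 4 most abundant others, Aldh1a7, and the 4 genes most like the member with the smallest p. Of these, 2 genes are not reported here.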

Additional observations from a re-analysis of the deposited data

How the results depend on the processing

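Over all genes, 159 calls became 756 without a filter on low counts, 255 with robust dispersion, 443 with DESeq2, 42 with the airway epithelial covariate and 0 with the adventitial covariate, and 24 (without M2) to 148 (without M4) when 1 library was left out (27 without M5, 42 without M6). Without composition factors 97 genes were higher and 75 lower, against 68 and 91, and the median of all genes was 0.074. Of the 9 retinoid genes, 0 were called, but 1 (Aldh1a3) without a filter, 1 with DESeq2 and 0 to 1 with 1 library left out (without M4). Of the other pathway genes, 1 was called without a filter, 1 with DESeq2 (Lipe in both) and 2 with the endothelial covariate (Lipe and Lrat). Aldh1a1 made up 56.1% of the summed level per kilobase of the 9 genes, and 64.5% with the longest transcript as the length.

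Of 436 recomputed log2 fold changes of 29 named genes, 29 changed sign, and the cause was not tested. With the endothelial covariate they were -0.541 for Rarb, -0.114 for Rdh10, -0.862 for Cyp26b1, -0.97 for Lrat, -0.164 for Rora and -0.0676 for Ep300. With the airway epithelial covariate they were -0.0861 for Dhrs7 and -0.0227 for Rarres2, with the adventitial covariate, chosen after seeing the data, -0.189 for Aldh1a3, and without composition factors 0.0416 for Ncor1. With 1 library left out, the ranges that crossed 0 were -0.304 to 1.24 for Rarb, -0.0607 to 0.124 for Rdh10, -0.0681 to 0.209 for Adh7, -0.302 to 1.28 for Cyp26b1, -0.101 to 0.206 for Dhrs7, -0.399 to 0.0624 for Dhrs3, -0.183 to 0.565 for Aldh1a2, -0.389 to 0.309 for Lrat, -0.0643 to 0.268 for Cyp1b1, -0.0765 to 0.0577 for Ncor1, -0.262 to 0.0229 for Tgm2 and -0.166 to 0.155 for Rarres2. Rarg, Rara, Aldh1a1 and Adh1 kept their direction under the 15 alternatives compared for them. The adventitial covariate, which removed all calls and whose level was fully apart between the groups, was not among these 15. Its model was fitted to all genes, but its log2 fold changes were compiled for Aldh1a3 alone.

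With 3 pools in a group, most changes under 2-fold would be missed, as 42.9% of simulated 2-fold changes were called. Rarb is limited by its 2 to 25 counts per library. No paired analysis was possible because the columns carry no replicate number that the groups share.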
